A study of Mus musculus with 8 samples.

Results

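The mitotic cells described here are the 10% of SN4741 cells of each 37°C library in which 5 genes of late G2 and mitosis, Ccnb1, Ccnb2, Cdc20, Plk1 and Cdca3, took the largest share of UMIs, the tags by which each captured transcript is counted once. Cells entered with at most 15% of UMIs from mitochondrial genes, 200 to 6000 detected genes and at least 5000 UMIs, which left 7882 of the 8995 deposited cells at 37°C and 16015 of 19125 in all 8 libraries. Ranking by the share then gave 788 mitotic cells, 218, 160, 170 and 240 in replicates 1, 2, 3 and 4. The members were thus chosen by measured transcript shares. They were compared within each library with the lowest 50% of cells by the same share (3940 cells, here called low-score cells) and with the 3154 cells between these classes, here called middle cells. Because the 5 genes chose the cells, their values are a description and were left out of every test.

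SN4741 is a clonal line of mouse neural precursor cells from the embryonic substantia nigra, labelled wild type (WT), made immortal by a heat-sensitive viral T antigen whose transgene is driven by the tyrosine hydroxylase promoter, and reported by the study to be karyotypically unstable and polyploid. All 4 libraries analysed at 37°C came from cultures in 10% serum at the temperature at which the T antigen is active. The 4 libraries at 39°C, used here only beside mitotic cells of 37°C at the end, for the share of high-score cells and the transcript levels of those cells, came from cultures moved to 39°C and 0.5% serum for 48 hours, so temperature and serum cannot be told apart. Single-cell 3' RNA libraries were made with the Chromium V3 kit, and the labels do not say whether replicates were separate cultures. P-values therefore concern these libraries only, and those of single genes rest mostly on a spread pooled over genes.

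A cell that enters mitosis has built up a transcript programme over G2. The B-type cyclins Ccnb1 and Ccnb2 activate the kinase CDK1, Plk1 drives centrosome maturation and mitotic entry, and Cdc20 later turns the anaphase-promoting complex (APC/C) on the cyclins and on securin, which lets sister chromatids part. Transcription of many of these genes is held back in early cell cycle by the DREAM complex and released in G2 through MuvB, B-Myb and FoxM1, which reach promoters at the cell cycle genes homology region (CHR) and often need CCAAT boxes bound by NF-Y. Transcripts of this programme accumulate in G2 and persist through mitosis, so the ranking gathers cells of both stages, which were not separated here.

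Members and comparison cells differed moderately in depth. Mitotic cells held a median of 14008 ± 2822 UMIs (SD over 4 libraries), against 12502 ± 2275 in low-score cells, a difference of 1506 that was positive in 4 of 4 libraries (two-sided exact sign-flip permutation test, p = 0.125, the smallest p that 4 libraries allow). The median numbers of detected genes were 4054 ± 434 and 3721 ± 376 (difference 333, exact permutation p = 0.125). The median share of mitochondrial UMIs was 7.14% ± 0.137 in mitotic cells and 7.77% ± 0.173 in low-score cells (difference -0.625 percentage points, lower in 4 of 4 libraries, exact permutation p = 0.125). Against middle cells, which held 14156 ± 2444 UMIs, the difference in UMIs was -148 on average, positive in 3 libraries and -906 in replicate 4. No barcode was shared between members of different libraries. No doublet caller was run, and the upper limit on genes left out 37, 96, 142 and 0 cells of the 4 libraries.

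The share that chose the members was small in absolute terms. Members started at 0.0917%, 0.108%, 0.113% and 0.110% of UMIs in replicates 1 to 4, and their median shares were 0.126%, 0.147%, 0.152% and 0.154%. The 10 cells just inside the limit held shares of 0.0917 to 0.0935% in replicate 1 and 0.113 to 0.117% in replicate 3, and the 10 just outside held 0.0887 to 0.0915% and 0.109 to 0.112%, so the limit lay within a continuous range. Every member carried UMIs of at least 2 of the 5 genes, and 64.7 to 81.3% of members per library carried all 5. Between 30.02 and 37.33% of all kept cells carried none.

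Each of the 5 genes contributed. Levels of these genes, of summed lists and of ranks are given as raw CPM, counts per 1000000 UMIs of the cells summed. Ccnb1 stood at 335, 374, 382 and 384 raw CPM in mitotic cells of replicates 1 to 4, against 5.06 to 6.95 in low-score cells and 77.1 to 88.6 in middle cells. Ccnb2 stood at 235, 261, 264 and 272 raw CPM, against 4.99 to 7.87 in low-score cells. Cdc20 reached 308, 407, 440.3 and 422 raw CPM, with 5.65 to 8.96 in low-score cells. Replicate 1 was the lowest for all 3 of these genes, and it also had the lowest limit. Plk1 ranged from 182 to 217 raw CPM and Cdca3, a trigger of mitotic entry that acts through ubiquitination, from 288 to 326, against 0.975 to 1.38 and 5.87 to 9.26 in low-score cells. Middle cells held intermediate levels of all 5, for example 39.2 to 52.96 raw CPM of Plk1.

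Markers outside the score were then read as a description. Those of mitosis belong to the same programme as the score, so their rise is not an independent check of the label. With every cell thinned to 5000 UMIs, so that depth was equal, Cenpf was detected in 97.4% of members and 9.66% of low-score cells (means of 4 libraries, 99.0% and 20.5% without thinning), Hmmr in 93.2% of members and 5.64% of low-score cells, Ube2c in 91.5% of members and 23.1% of low-score cells and Aurka in 49.1% of members and 1.65% of low-score cells. All 8 further mitotic markers (Ube2c, Birc5, Hmmr, Cenpf, Cenpe, Aurka, Tpx2 and Kif20a) were higher in mitotic cells without overlap between libraries, as were 14.7% of all tested genes. Markers of S phase went the other way, with Mcm6 in 23.1% of members and 57.6% of low-score cells and Pcna in 9.52% of members and 24.97% of low-score cells. Of 18 markers of glia, blood, endothelial and epithelial cells, 9 were at 0 UMIs in the 788 members (Gfap, Aqp4, S100b, Olig1, Olig2, Sox10, Cdh5, Epcam and Krt18), and the whole list held 112 UMIs in mitotic cells, 22 to 42 per library. In the more numerous low-score cells 8 of the 18 were at 0 and the list held 1303 UMIs, 285 to 401 per library. Slc1a3 alone gave 53 of these UMIs in members and 1049 in low-score cells. Of 16 neuronal markers 9 were at 0 in members and 5 in the more numerous low-score cells. The whole neuronal list held 3712 UMIs in members and 17914 in low-score cells. After thinning, Ncam1 was detected in 41.2% of members and 38.5% of low-score cells, and Stmn2 in 20.8% and 24.1%. The part of rare other cells in any result was not tested.

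The promoters of 2 score genes (Cdc20 and Ccnb2), of 4 genes among the largest rises (Cenpf, Hmmr, Aspm and Cenpa) and of Mcm6, a replication gene that fell, are printed to show the motifs through which this programme is known to be controlled. The windows come from RefSeq (GRCm38.p6) and run 5' to 3' from 120 bases before the annotated start to 30 after it, in lower case with motif matches in capitals. The motifs searched on both strands were the CHR (TTTGAA or TTCGAA), the CCAAT box (CCAAT, which reads ATTGG on the other strand) and an E2F site (TTTGGCGC or TTTCGCGC). The windows lie at chr4:118437314-118437463 (minus strand) for Cdc20, chr9:70421525-70421674 (minus strand) for Ccnb2, chr1:189688057-189688206 (minus strand) for Cenpf, chr11:40733408-40733557 (minus strand) for Hmmr, chr1:139454653-139454802 (plus strand) for Aspm, chr5:30666766-30666915 (plus strand) for Cenpa and chr1:128359676-128359825 (minus strand) for Mcm6.
Cdc20: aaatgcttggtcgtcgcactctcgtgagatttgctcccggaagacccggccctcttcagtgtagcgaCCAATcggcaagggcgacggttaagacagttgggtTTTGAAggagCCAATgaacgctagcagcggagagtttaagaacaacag
Ccnb2: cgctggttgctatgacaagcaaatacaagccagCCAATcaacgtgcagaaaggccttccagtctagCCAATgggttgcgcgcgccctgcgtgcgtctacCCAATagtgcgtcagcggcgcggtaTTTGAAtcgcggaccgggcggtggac
Cenpf: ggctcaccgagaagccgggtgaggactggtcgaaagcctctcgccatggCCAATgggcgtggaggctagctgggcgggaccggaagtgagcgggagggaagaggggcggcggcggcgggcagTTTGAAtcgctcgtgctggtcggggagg
Hmmr: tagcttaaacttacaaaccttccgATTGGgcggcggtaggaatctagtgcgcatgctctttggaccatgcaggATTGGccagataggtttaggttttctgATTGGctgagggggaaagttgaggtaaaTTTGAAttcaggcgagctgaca
Aspm: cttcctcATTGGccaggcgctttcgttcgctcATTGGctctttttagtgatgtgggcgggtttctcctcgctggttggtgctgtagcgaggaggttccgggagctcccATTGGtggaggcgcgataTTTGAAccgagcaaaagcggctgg
Cenpa: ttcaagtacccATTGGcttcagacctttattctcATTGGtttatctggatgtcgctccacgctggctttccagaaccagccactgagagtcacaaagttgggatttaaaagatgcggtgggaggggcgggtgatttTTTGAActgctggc
Mcm6: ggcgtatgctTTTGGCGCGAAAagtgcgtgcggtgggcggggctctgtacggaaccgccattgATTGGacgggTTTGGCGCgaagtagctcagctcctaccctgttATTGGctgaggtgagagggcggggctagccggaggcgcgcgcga
Counting from 0 at the annotated start, the CHR matches began at -18 in Cdc20, 4 in Ccnb2, 2 in Cenpf, 8 in Hmmr, 6 in Aspm and 16 in Cenpa, each with 1 to 3 CCAAT boxes upstream of the start. The Mcm6 window held no CHR and 3 E2F matches, 2 of which overlap, at -110, -106 and -47. Over the whole window of 250 bases before to 50 after the start, 180 of the 221 genes with a large rise against low-score cells (over 1.5 on the log2 scale) had an entry (81.4%). Of these, 100 held a CHR (55.6%, against 19.4% of all 27025 promoters of the table) and 114 a CCAAT box (63.3% against 37.9%), and 78 held both (43.3% against 7.70%). Of all 1970 genes higher against low-score cells by the test below, large rise or small, 1626 had an entry. The shares of these 1626 were lower, at 22.3% for a CHR, 45.7% for a CCAAT box and 12.5% for both. E2F matches were rarer, in 6 of 180 (3.33%, against 0.833% of all promoters and 1.78% of the 1626). The promoters of the table include those of genes not tested here, so they are an unlike background. Of the 121 CHR matches among the genes with a large rise, 71 lay within 50 bases of the start (58.7%, against 24.7% of 6066 matches over all promoters). For genes with a large fall, 73.2% had an entry, under the 80% set for this description, and their shares are not given. A match describes letters in a window and not a bound site.

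To find which other genes differed, raw UMI counts were summed over the members and over low-score cells of each library and compared with edgeR's quasi-likelihood test with the library as a block. Levels are given in counts per 1000000 of tested genes after scaling by TMM factors (CPM). Fold changes are on the log2 scale with a standard error (SE, n = 4 libraries) from the same test, which pools the spread over genes. Of 13921 genes tested, 1970 were higher (14.2%) and 2220 lower (15.9%, and 30.1% in all) in mitotic cells at a Benjamini-Hochberg adjusted p under 0.01. Most called differences were small, with a median log2 fold change of 0.42 among the higher genes and -0.49 among the lower ones. A large difference, over 1.5 on the log2 scale, was found for 221 higher genes (1.59%) and 149 lower genes (1.07%). Among genes of at least 50 CPM in the class where they were higher, these counts were 122 and 7, so the large falls were almost all in genes of low level. Each call of a named gene was also recomputed with a replicate left out and under 18 other settings of the scaling, filters, tool, block, depth, cell limits, score and comparison cells, and a lost call is given beside the gene. Genes of the same programme as the score vary with it from cell to cell, so a rise of such a gene describes the ranked cells and is not independent evidence of their stage.

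The 10 largest rises at 50 CPM or more were dominated by genes of the spindle and kinetochore. Cenpf, a kinetochore protein that is broken down after mitosis, led with 1723, 1893, 1852 and 1815 CPM in mitotic cells of replicates 1 to 4 and 27.2, 20.9, 24.8 and 26.2 in low-score cells (log2 fold change 6.20 ± 0.04). The lowest member value was far above the highest value of low-score cells. Sapcd2, which acts in spindle orientation, stood at 50.5, 57.7, 60.2 and 64.9 CPM in mitotic cells and at 0.973, 0.735, 1.22 and 0.605 in low-score cells (6.01 ± 0.14, adjusted p = 6.92e-140). Aspm, a spindle pole protein needed for neural progenitor divisions, reached 291, 305, 339.6 and 287 CPM against 4.64, 7.26, 5.69 and 6.81 (5.65 ± 0.07, adjusted p = 6.19e-235). The spindle assembly factor Hmmr was at 623, 625, 596 and 606 CPM against 14.7, 9.47, 13.9 and 15.2 (5.52 ± 0.05, adjusted p = 1.14e-272). In none of these genes did the libraries of the classes overlap. The remaining 6 were Aurka (5.33 ± 0.08), Kif20a (5.30 ± 0.08), Cenpa (5.24 ± 0.05), Prr11 (5.09 ± 0.13), Kif2c (5.07 ± 0.10) and Cdc25c (4.97 ± 0.13), with adjusted p from 8.03e-256 to 6.73e-130.

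**Figure D1:**
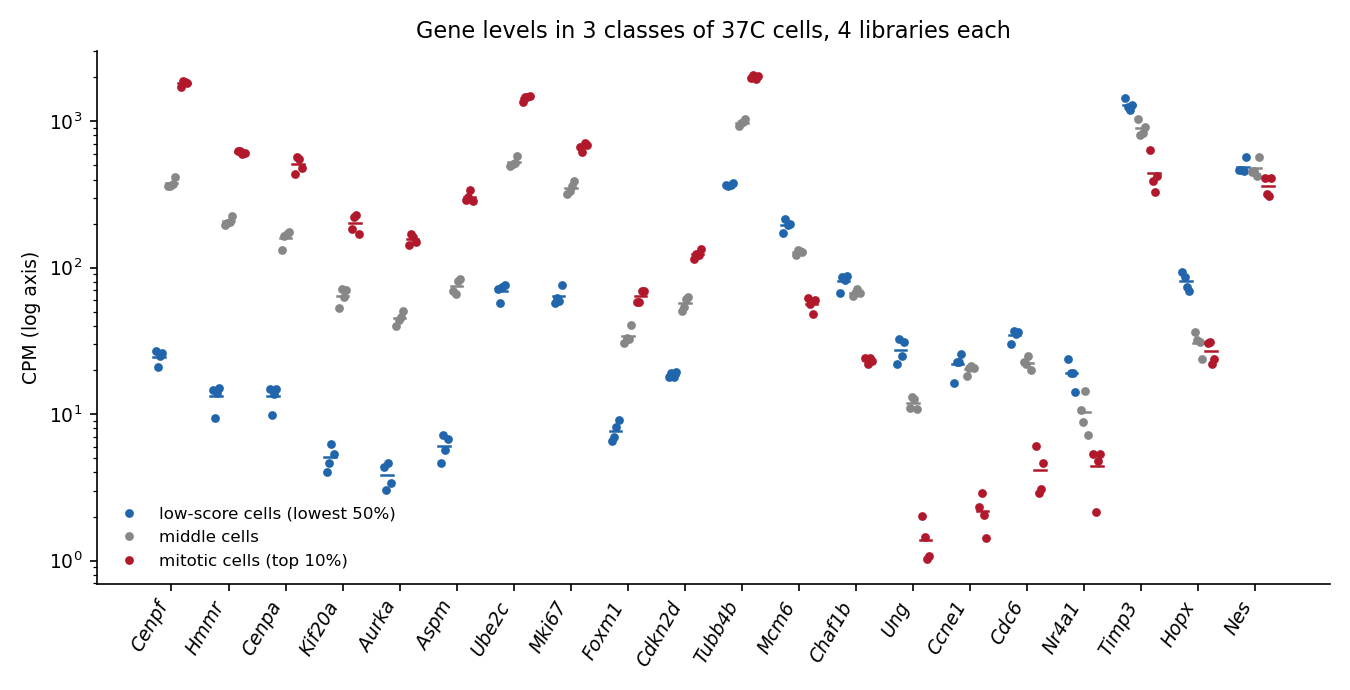
Levels of 20 genes in CPM (log axis) in low-score cells (blue), middle cells (grey) and mitotic cells (red) of the 4 libraries at 37°C. Points are libraries and bars their means. The 4 libraries of a class lie close together, Cenpf runs from about 24.8 in low-score cells to 1821 in mitotic cells, and replication genes such as Ung and Cdc6 run the other way.

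The kinases and cyclins that drive mitosis rose as a group. Of 20 tested genes of a list of mitotic kinases, their cyclins and regulators (without the score genes), 18 rose and 0 fell, against 14.2% of all genes that rose, and the median log2 fold change was 2.61 where that of all tested genes was -0.04. The centrosomal kinase Aurka stood at 143, 169, 162 and 150.5 CPM in mitotic cells and at 4.34, 3.02, 4.61 and 3.40 in low-score cells. Cdc25c, the phosphatase that removes the inhibitory phosphates of CDK1, was at 45.8, 63.1, 59.5 and 54.6 CPM against 1.57, 1.96, 1.66 and 1.89. The kinase Nek2, which separates centrosomes, was at 68.6, 73.9, 89.5 and 74.2 CPM against 4.27, 3.75, 5.403 and 4.99 (4.05 ± 0.10, adjusted p = 3.73e-135). All 3 were higher in every library without overlap. Cdk1 itself rose by 2.28 ± 0.04, its A-type cyclin Ccna2 by 3.51 ± 0.05 and the chromosomal kinases Aurkb and Bub1 by 3.27 ± 0.08 and 3.29 ± 0.08. The 2 genes that did not pass were Pkmyt1, an inhibitory kinase of CDK1 (-0.31 ± 0.13), and Ajuba, an activator of Aurora A (0.18 ± 0.10).

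Within the ubiquitin machinery that ends mitosis, regulators and substrates moved more than the core. Of 20 tested genes, 14 rose and 0 fell (median 0.38), where 14.2% of all genes rose and 15.9% fell. Ube2c, the ubiquitin-conjugating enzyme of the APC/C, stood at 1362, 1460.3, 1456 and 1476 CPM in mitotic cells and 72.1, 57.1, 74.2 and 76.2 in low-score cells (4.36 ± 0.03, adjusted p = 2.86e-297). Separase (Espl1), which cleaves cohesin, rose from 4.34, 5.22, 5.55 and 5.75 to 57.9, 57.7, 65.0 and 61.0 CPM (3.53 ± 0.10), and its inhibitor securin (Pttg1) rose from 42.4, 38.4, 41.9 and 39.3 to 234, 269, 282 and 267 (2.70 ± 0.05). Core subunits of the APC/C changed less, by at most 0.70 ± 0.10 (Cdc23), and the 6 genes that did not pass were all such subunits.

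Genes of the kinetochore and of the checkpoint that watches over its attachment rose in 32 of 34 cases (0 fell, median 1.68). Among all tested genes, 14.2% rose and 15.9% fell. Besides Cenpf, the largest rises were those of Cenpa, the histone H3 variant that marks the centromere, at 434, 573, 549 and 480.0 CPM against 14.9, 9.80, 13.8 and 14.97 (5.24 ± 0.05), and of the kinetochore motor Cenpe at 745, 758, 765 and 757 against 40.9, 30.5, 34.1 and 35.8 (4.42 ± 0.04, adjusted p = 1.39e-269). Cenpe was nearly level across the 4 libraries of mitotic cells, while Cenpa varied more. The other 2 genes of the list did not pass the test.

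Motors and organisers of the spindle showed the second largest median among the lists (3.29), with 29 of 30 genes higher and 0 lower. Among all tested genes, 14.2% were higher and 15.9% lower. Kif20a, a kinesin of the central spindle, was at 183, 223, 229.7 and 169 CPM in mitotic cells against 4.04, 4.65, 6.27 and 5.37 in low-score cells, with replicates 2 and 3 above 1 and 4 in members. Kif2c, which removes tubulin at kinetochores, was at 75.9, 97.0, 104 and 87.7 against 2.62, 2.45, 2.81 and 2.87. Kif11, the motor that pushes spindle poles apart, rose by 4.32 ± 0.06, the midzone bundler Prc1 by 3.77 ± 0.04 and Tpx2, the activator of Aurora A, by 2.95 ± 0.04. The remaining gene did not pass. Tubulins and stathmin followed with 13 of 15 genes higher and 1 lower (median 1.17): Tuba1c rose from 32.5, 30.3, 27.4 and 35.0 to 241, 236, 229 and 237 CPM (2.91 ± 0.05), Tubb4b by 2.45 ± 0.03 and Tubb6 by 1.58 ± 0.04. Map4, a microtubule-associated protein, fell (-0.44 ± 0.06). Tubulin genes are close in sequence, and how reads that match several of them were counted can shift counts between them.

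Genes of the chromosomal passenger complex and of cytokinesis had the largest median of the lists (3.33). In this list 15 of 15 tested genes rose, against 14.2% of all genes. Depdc1b was at 10.4, 13.3, 11.2 and 10.7 CPM in mitotic cells and rested on only 12 UMIs in low-score cells (5.55 ± 0.31), so its fold change is imprecise. Cep55, which brings the membrane-cutting machinery to the midbody, was at 96.0, 113, 108 and 97.7 CPM against 3.29, 4.33, 4.97 and 5.07 (4.55 ± 0.09, adjusted p = 1.37e-158). The related Depdc1a rose by 4.16 ± 0.10, survivin (Birc5) by 3.87 ± 0.04, borealin (Cdca8) by 3.62 ± 0.06 and Kif23 of the centralspindlin complex by 3.96 ± 0.06. The smallest rise was that of the GTPase Rhoa (0.17 ± 0.04), whose call was lost without replicate 2 (0.13, adjusted p = 0.0144) and under 3 of 18 other settings (0.16 to 0.18, adjusted p = 0.0109 to 0.0197).

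Structural genes of the centrosome, chromosome and nucleus mostly rose, where 14.2% of all tested genes rose and 15.9% fell. Among 17 centrosome and centriole genes 12 rose and 0 fell (median 0.81), led by Cep70 (2.22 ± 0.11), Nde1 (1.82 ± 0.07) and Plk4, the kinase that starts centriole duplication (1.40 ± 0.08). Among 22 genes of condensin, cohesin and other chromosomal proteins 18 rose and 1 fell (median 1.32). Mki67, the coat protein of mitotic chromosomes and a marker of proliferation, stood at 672, 621, 709 and 692 CPM against 57.2, 61.7, 59.4 and 76.7 (3.41 ± 0.04, adjusted p = 1.76e-239). Topoisomerase Top2a rose by 2.70 ± 0.03, the histone variant H2afx by 2.64 ± 0.05 and Hmgb2 by 2.31 ± 0.03. The condensin I subunits Ncapd2 (2.27), Ncapg (2.39) and Ncaph (1.09) rose. The cohesin subunit Smc3 fell slightly (-0.16 ± 0.04), a call lost under 4 of 18 other settings (-0.16 to -0.05, adjusted p = 0.011 to 0.195). Nuclear envelope and pore genes rose in 13 of 20 cases and fell in 1 (median 0.31), with Nup37 (1.46 ± 0.09), lamin B1 (Lmnb1, 1.11 ± 0.05) and Tmpo (1.02 ± 0.04) the largest. The fall was in Nup43 (-0.29 ± 0.08), and its call was lost without replicate 3 or 4 (-0.24 and -0.27, adjusted p = 0.0424 and 0.022) and under 5 of 18 other settings (-0.33 to -0.18, adjusted p = 0.0126 to 0.208).

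The regulators of the programme divided. Of 9 genes of MuvB, B-Myb, FoxM1 and the atypical E2F factors, 4 rose and 3 fell. Among all tested genes, 14.2% rose and 15.9% fell. Foxm1, the transcription factor of G2, stood at 58.5, 58.8, 69.1 and 69.5 CPM in mitotic cells and 6.58, 6.94, 8.21 and 9.07 in low-score cells (3.05 ± 0.09, adjusted p = 3.20e-106). The MuvB subunits Lin9 (0.89 ± 0.09), Lin54 (0.84 ± 0.10) and Lin37 (0.64 ± 0.10) rose less. B-Myb (Mybl2, -0.51 ± 0.14), E2f7 (-0.41 ± 0.11) and Rbbp4 (-0.23 ± 0.06) fell. The rise of Lin37 was not called with sums thinned to 5000 UMIs (0.20, adjusted p = 0.437). The falls were less stable. The call of Mybl2 was lost without replicate 2, 3 or 4 (-0.46, -0.46 and -0.47, adjusted p = 0.018, 0.0159 and 0.0201) and under 7 of 18 other settings (-0.59 to -0.19, adjusted p = 0.0117 to 0.148), and its direction turned against the lowest 25% of cells (0.08). That of E2f7 was lost without replicate 4 (-0.27, adjusted p = 0.069) and under 6 of 18 other settings (-0.42 to -0.05, adjusted p = 0.0108 to 0.669). That of Rbbp4 was lost without replicate 4 (-0.18, adjusted p = 0.0227) and under 4 of 18 other settings (-0.22 to -0.12, adjusted p = 0.0177 to 0.0328).

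Genes of DNA replication and of the G1/S transition fell. Of 44 tested, 30 fell and 4 rose (median -0.71), against 15.9% of all genes that fell. Ung, which removes uracil from DNA, dropped furthest, from 21.8, 32.7, 25 and 30.9 CPM in low-score cells to 2.01, 1.44, 1.02 and 1.07 in mitotic cells (-4.29 ± 0.21, adjusted p = 4.55e-60). Cyclin E1 (Ccne1) went from 16.4, 22.7, 22.8 and 25.6 to 2.34, 2.88, 2.04 and 1.43 CPM (-3.32 ± 0.20), and the licensing factor Cdc6 from 30.4, 37.1, 35.3 and 36.5 to 6.02, 2.88, 3.06 and 4.64 (-3.05 ± 0.15). The 16 to 48 UMIs of these 3 genes over all members limit the precision of their levels. At higher levels, Mcm6 of the replicative helicase went from 172, 215, 195 and 199.8 to 62.5, 56.2, 48.3 and 60.6 CPM (-1.78 ± 0.06, adjusted p = 3.48e-101), and Chaf1b of the chromatin assembly factor from 66.8, 87.1, 82.3 and 88.5 to 24.1, 22.0, 24.2 and 23.2 (-1.79 ± 0.08, adjusted p = 8.80e-65). Mcm2 (-1.43 ± 0.07), Cdt1 (-1.44 ± 0.09) and E2f1 (-1.67 ± 0.09) were also among the 10 largest falls at 50 CPM or more, and Mcm5 (-1.13 ± 0.06) and Pcna (-1.22 ± 0.08) fell too. Those that rose included Rrm2 (0.53 ± 0.06) and Rrm1 (0.21 ± 0.05) of ribonucleotide reductase and Usp1 (0.18 ± 0.05). The call of Usp1 was lost without replicate 1 or 4 (0.14 and 0.15, adjusted p = 0.0588 and 0.0477) and under 9 of 18 other settings (0.09 to 0.19, adjusted p = 0.0295 to 0.479), that of Rrm1 under 3 of 18 other settings (0.06 to 0.20, adjusted p = 0.0108 to 0.391), and against all other cells Rrm2 stood at -0.02.

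The remaining 5 of the 10 largest falls were not cell cycle genes. Timp3, an inhibitor of matrix metalloproteinases, stood at 640.2, 390.4, 327 and 423 CPM in mitotic cells and 1435, 1257, 1197 and 1285 in low-score cells (-1.56 ± 0.03, adjusted p = 8.62e-160). Hopx, a small homeodomain protein, went from 93.5, 86.9, 73.4 and 69.6 to 30.4, 31.0, 22.1 and 23.9 CPM (-1.59 ± 0.08), and matrix Gla protein (Mgp) from 78.5, 68.8, 67.4 and 64.3 to 28.8, 23.1, 18.0 and 16.4 (-1.69 ± 0.09). Replicate 1 held the highest member value of Timp3 and Mgp. Kctd12, a partner of GABA-B receptors, fell by 1.73 ± 0.07 and Tmem158 by 1.48 ± 0.10 on the log2 scale.

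Inhibitors of the G1 kinases did not fall together. Of 16 genes of G1 control and growth, 4 rose and 8 fell (median -0.11), where 14.2% of all genes rose and 15.9% fell. Cdkn2d (p19INK4d), an inhibitor of CDK4 and CDK6, stood at 114, 124, 121 and 134 CPM in mitotic cells and 18.0, 19.2, 17.9 and 19.3 in low-score cells (2.73 ± 0.07, adjusted p = 2.94e-132). Cdkn1b (p27) was at 108, 109.6, 109 and 98.8 CPM against 55.6, 52.5, 46.3 and 46.7 (1.08 ± 0.06, adjusted p = 3.82e-50), and Cdkn2c rose by 0.60 ± 0.08. Cyclin D2 (Ccnd2) rose by 0.29 ± 0.05, a call lost with sums thinned to 5000 UMIs (0.22, adjusted p = 0.0286) and with the top 5% of cells (0.09, adjusted p = 0.347), while cyclins D1 and D3 fell (Ccnd1 -0.29 ± 0.03, Ccnd3 -0.68 ± 0.08). Myc fell from 17.5, 16.98, 25.8 and 23.1 to 12.7, 4.69, 12.9 and 13.2 CPM (-0.93 ± 0.13, adjusted p = 9.75e-11).

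Several groups outside the cell cycle fell, where 15.9% of all tested genes fell and 14.2% rose. Of 26 immediate early genes, which respond to serum within minutes, 16 fell and 2 rose (median -0.63). Nr4a1 went from 23.8, 19.1, 19.0 and 14.1 CPM to 5.35, 2.16, 4.76 and 5.35 (-2.10 ± 0.17, adjusted p = 9.85e-28), Klf2 fell by 1.68 ± 0.20 and the phosphatase Dusp1 by 1.31 ± 0.07 on the log2 scale. Klf4 (0.13 ± 0.04) and Klf6 (0.32 ± 0.05) rose, the call of Klf4 being lost without replicate 1, 3 or 4 (0.13, 0.11 and 0.10, adjusted p = 0.0139, 0.0348 and 0.0568) and under 7 of 18 other settings (0.02 to 0.15, adjusted p = 0.0129 to 0.787). Cholesterol synthesis fell in 16 of 18 genes and rose in 1 (median -0.56): Cyp51 went from 77.6, 82.4, 76.0 and 84.5 to 37.1, 30.3, 31.0 and 40.7 CPM (-1.20 ± 0.07), and Idi1 (-1.06 ± 0.08) and the sensor Insig1 (-1.01 ± 0.11) fell as well. The kinase Mvk rose (0.37 ± 0.08), though not with sums thinned to 5000 UMIs (0.35, adjusted p = 0.0298). Matrix and contractile genes fell in 17 of 30 cases and rose in 3 (median -0.21), and the genes that fell included Ctgf (-1.28 ± 0.11) and Cyr61 (-1.09 ± 0.05), which are targets of serum response factor and of YAP. Glycolysis genes fell in 8 of 14 cases and rose in 3 (median -0.14), with the glucose transporter Slc2a1 (-0.85 ± 0.13) and hexokinase Hk2 (-0.97 ± 0.19) lower and Tpi1 (0.46 ± 0.04) higher. Hk2 was not called with sums thinned to 5000 UMIs (-0.97, adjusted p = 0.0172).

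Ribosomal protein genes fell in 66 of 78 cases and rose in 1, but by little (median -0.13, lowest call Rpl37 at -0.26 ± 0.02, then Rpl27a at -0.23 ± 0.02, with Rpl7l1 higher at 0.24 ± 0.06). Among all tested genes, 15.9% fell and 14.2% rose, which also applies to the groups below. Libraries of the classes overlapped in all but 8 of the 78 ribosomal genes, where 18.3% of all tested genes were lower without overlap. The call of Rpl7l1 was lost without replicate 3 or 4 (0.20 and 0.21, adjusted p = 0.0253 and 0.0199) and under 5 of 18 other settings (0.13 to 0.27, adjusted p = 0.0109 to 0.407). Rpl37 and Rpl27a were not called without the library block (-0.26 and -0.23, adjusted p = 0.0249 and 0.0128). Transcripts of the mitochondrial genome fell in 10 of 13 cases with a median of -0.12 (mt-Nd6 -0.24 ± 0.06, mt-Nd4 -0.21 ± 0.02, mt-Co1 -0.17 ± 0.02), in the same cells whose mitochondrial share of UMIs was lower. The call of mt-Nd6 was lost without replicate 4 (-0.22, adjusted p = 0.012) and under 3 of 18 other settings (-0.24 to -0.22, adjusted p = 0.0213 to 0.052), and that of mt-Co1 without the library block (-0.17, adjusted p = 0.0202). Of 6 long non-coding RNAs 5 fell and 1 rose. Malat1, a nuclear RNA, was at 20806, 24913, 21277 and 18169 CPM in mitotic cells and 28032, 30453, 25138 and 22301 in low-score cells (-0.31 ± 0.01, lower in 4 of 4 libraries within library, with overlap between libraries). Tug1 rose (0.49 ± 0.08) and Snhg12 fell (-0.42 ± 0.09), a call lost with DESeq2 (-0.41, adjusted p = 0.0193) and with sums thinned to 5000 UMIs (-0.40, adjusted p = 0.0397). All of these are shares of UMIs, so small falls of abundant genes and the larger share of mitotic genes in the same cells cannot be told apart.

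Stress lists were mixed. Of 22 heat shock genes 6 rose and 8 fell (median -0.03), where 14.2% of all genes rose and 15.9% fell, with Hspa4l higher (0.62 ± 0.05) and the inducible Hspa1a (-0.83 ± 0.19) and Hspa1b (-0.51 ± 0.10) lower. Hspa1a and Hspa1b are nearly identical copies, and reads can be split between them. Hspa1a was not called with DESeq2 (-0.83, adjusted p = 0.0192) and with the top 5% of cells (-0.70, adjusted p = 0.0222). Of 18 targets of ATF4 6 rose and 3 fell, the falls being near the share of all genes, with Slc7a5 at 0.65 ± 0.17, Trib3 at -1.10 ± 0.35 and Vldlr at -0.62 ± 0.09. Slc7a5 was higher in 3 of 4 libraries and lost its call without replicate 4 (0.44, adjusted p = 0.0821) and under 5 of 18 other settings (0.29 to 0.67, adjusted p = 0.0111 to 0.151). Trib3 lost it without replicate 1, 2, 3 or 4 (-1.15, -1.07, -1.20 and -0.998, adjusted p = 0.0235, 0.0326, 0.0169 and 0.0352) and under 11 of 18 other settings (-1.56 to -0.86, adjusted p = 0.0126 to 0.165). Of 25 targets of p53 9 fell and 2 rose, a smaller share than the 14.2% of all genes that rose (median -0.08, which turned to 0.02 with the top 20% of cells). The largest rise was Ckap2 (2.38 ± 0.04), which also binds the spindle, and the falls were led by Plk3 (-1.24 ± 0.22) and the death receptor Fas, at 82.6, 71.7, 71.8 and 76.0 CPM against 133, 122, 131 and 126 (-0.76 ± 0.06).

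**Figure D2:**
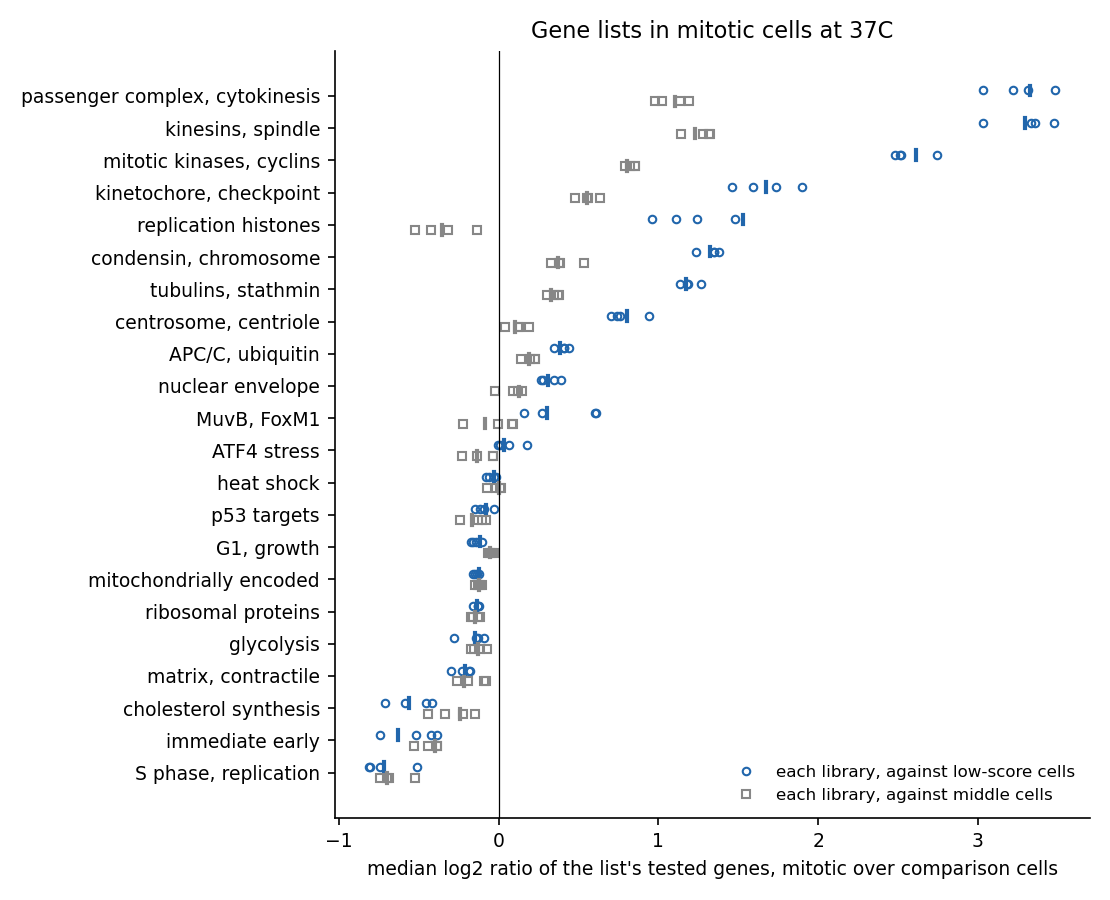
Median log2 ratio of the tested genes of 22 lists, mitotic cells over low-score cells (blue circles) or over middle cells (grey squares). Open symbols are the 4 libraries at 37°C and vertical bars the median of the fitted fold changes. Kinases and cyclins, kinetochore, spindle and cytokinesis genes lie right of 0 in every library, S phase genes lie left of 0 against both classes, and replication histones lie right of 0 against low-score cells and left of it against middle cells, where their median turned to 0.06 with the top 20% of cells and 0.05 with sums thinned to 5000 UMIs. The fitted median of the histones against low-score cells lies above the 4 library values.

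Genes named by the study for its temperature comparison were given separately. Mki67 rose and 5 of the other 7 fell. Nes, a marker of neural progenitors, was at 411, 318, 310.3 and 407 CPM in mitotic cells and 463, 462, 454 and 569 in low-score cells (-0.43 ± 0.03, adjusted p = 4.68e-29), Irx3 changed by -0.67 ± 0.07, Cdh13 by -0.64 ± 0.06 and Celf5 by -0.31 ± 0.08. Celf5 was not called with DESeq2 (-0.29, adjusted p = 0.0359) and with the top 20% of cells (-0.13, adjusted p = 0.0723). Id2 (0.03 ± 0.07) and Hmga2 (-0.17 ± 0.07) did not pass. The study chose these genes on libraries of this series, so their direction is not independent evidence. Of 9 tested neural progenitor genes 5 fell and 1 rose, where 15.9% of all genes fell and 14.2% rose. Beside Nes, Msi2 stood at -0.72 ± 0.13 and Sox9 at -0.69 ± 0.19. The gene that rose was Sox2 (0.33 ± 0.07), and it lost the call under 3 of 18 other settings (0.05 to 0.23, adjusted p = 0.046 to 0.788). Sox9 lost it without replicate 3 or 4 (-0.63 and -0.62, adjusted p = 0.0159 and 0.0144) and under 6 of 18 other settings (-0.74 to -0.35, adjusted p = 0.0122 to 0.121), and Msi2 with sums thinned to 5000 UMIs (-0.66, adjusted p = 0.0122). Among neuronal genes 7 of 16 were tested, and Tubb3 (1.17 ± 0.12) and Ncam1 (0.16 ± 0.05) rose while Map2 (-0.76 ± 0.08) and Celf5 fell. Ncam1 lost its call without replicate 1, 2, 3 or 4 (0.12, 0.15, 0.16 and 0.18, adjusted p = 0.0981, 0.0351, 0.0265 and 0.011) and under 8 of 18 other settings (0.02 to 0.20, adjusted p = 0.0145 to 0.846). With sums thinned to 5000 UMIs the direction of Ncam1 also turned, without a call (-0.04, adjusted p = 0.799). Tubb3 is a tubulin, and it moved with the other tubulins. Of 5 tested dopaminergic genes 1 was called, En1 (-0.58 ± 0.16), and not without replicate 4 (-0.43, adjusted p = 0.0545) or under 5 of 18 other settings (-0.59 to -0.43, adjusted p = 0.0138 to 0.0808). The astrocyte transporter Slc1a3 fell from 19.4, 18.9, 23.6 and 17.5 CPM to 3.68, 8.29, 4.42 and 2.14 (-2.11 ± 0.17) and was the only call among the 7 tested markers of other cell types. A single fall among these 7 markers, or among the 5 dopaminergic genes, lies near the 15.9% of all genes that fell.

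Against middle cells, which hold intermediate levels of the score genes, 1101 of 13931 genes were higher (7.90%) and 1399 lower (10.0%), with 36 and 49 large differences (0.258% and 0.352%). Without overlap between libraries, 9.29% of genes were higher and 12.1% lower. Both comparisons share the same member sums, so they are given side by side. The largest rises at 50 CPM or more were those of Serpinb8, a serine protease inhibitor (74.9, 76.8, 85.4 and 67.0 CPM in mitotic cells against 16.6, 16.5, 13.8 and 15.6 in middle cells, 2.27 ± 0.08, adjusted p = 1.69e-172), Cenpf (2.26 ± 0.03), Gas2l3, which links actin and microtubules in cytokinesis (2.21 ± 0.07), Sapcd2 (2.17 ± 0.09) and Aspm (2.02 ± 0.04). Against low-score cells Serpinb8 stood at 2.98 ± 0.09 and Cenpf at 6.20 ± 0.04. The largest falls were those of Chaf1b (-1.54 ± 0.09), Slfn9 (-1.25 ± 0.08), the histone gene Hist1h2ap (-1.18 ± 0.06), Mcm6 (-1.17 ± 0.06) and the YAP target Ankrd1 (69.6, 70.7, 67.7 and 62.8 CPM against 131, 169.8, 147 and 151, -1.15 ± 0.06).

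The same lists led against middle cells, with smaller medians, where 7.90% of all tested genes rose and 10.0% fell. Rises were found in 27 of 30 spindle genes (median 1.23), 14 of 15 passenger and cytokinesis genes (1.11), 17 of 20 kinases and cyclins (0.80) and 23 of 34 kinetochore genes (0.55). Ube2c rose by 1.45 ± 0.03, Aurka by 1.78 ± 0.06, Birc5 by 1.02 ± 0.03 and Mki67 by 0.93 ± 0.03. Replication and G1/S genes fell in 39 of 44 cases and rose in 0 (median -0.70), and Pcna fell by 1.002 ± 0.09 on the log2 scale.

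Many replication-dependent histone genes rose against low-score cells, while against middle cells their direction depended on the setting. Among all genes tested against low-score cells, 14.2% rose and 15.9% fell. Against low-score cells 23 of 50 tested genes rose and 1 fell (median 1.53, library medians 0.96 to 1.48), with Hist1h3e at 3.02 ± 0.36, Hist1h2bh at 3.37 ± 0.61 and Hist1h2ab at 2.85 ± 0.91 on 53, 22 and 9 UMIs in members. The call of Hist1h2ab was lost without replicate 1, 3 or 4 (3.02, 2.32 and 2.52, adjusted p = 0.0159, 0.139 and 0.0503) and under 6 of 16 other settings (1.42 to 3.002, adjusted p = 0.0108 to 0.47). Against all other cells Hist1h2ab stood at -0.28, and Hist1h2bh was not called there (0.78, adjusted p = 0.116). Against middle cells 0 of 58 rose and 8 fell (median -0.35, library medians -0.52 to -0.13), where 7.90% of all genes rose and 10.0% fell. This median turned to 0.06 with the top 20% of cells and 0.05 with sums thinned to 5000 UMIs. Hist1h2ap lay between the other classes, with 90.3, 29.9, 73.8 and 51.0 CPM in mitotic cells, 12.4, 7.10, 13.3 and 11.9 in low-score cells and 137, 83.7, 209.8 and 124 in middle cells. Replicate 2 was the lowest in each class. Histone genes are near-identical in sequence, their mRNAs mostly lack a poly(A) tail and are poorly captured by 3' chemistry, and single genes are therefore uncertain.

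Ranking all kept cells by the share of the score genes placed these patterns in order. Cells were divided into those without a score UMI (2701 cells), the rest of the lowest 50% (1239), ranks of 50 to 75% (1974), 75 to 90% (1180), 90 to 95% (396) and 95 to 100% (392), the last pair being the members. Summed over the list, spindle genes stood at 889.9 ± 39.3 raw CPM (mean ± SD, n = 4) in cells without a score UMI, 4101 ± 113 at 75 to 90%, 5724 ± 199.5 at 90 to 95% and 7336 ± 387 at 95 to 100%, so they were higher in the members ranked at 95 to 100% than in those at 90 to 95%. Histones peaked before the members, at 235 ± 5.23 without a score UMI, 1349.7 ± 145 at 75 to 90% and 568 ± 94.0 at 95 to 100%. Replication and G1/S genes were on average highest in the other low-score cells (4132 ± 345) and lowest at 95 to 100% (2288 ± 26.9). Cholesterol genes went from 753 ± 49.7 to 482 ± 8.21. The rank uses the score genes, so these values are a description. The cells without a score UMI were also the shallowest, with library medians of 8924 to 12633 UMIs against 12726 to 18973 in the other low-score cells, and the part of depth in the difference between those first 2 groups was not tested.

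**Figure D3:**
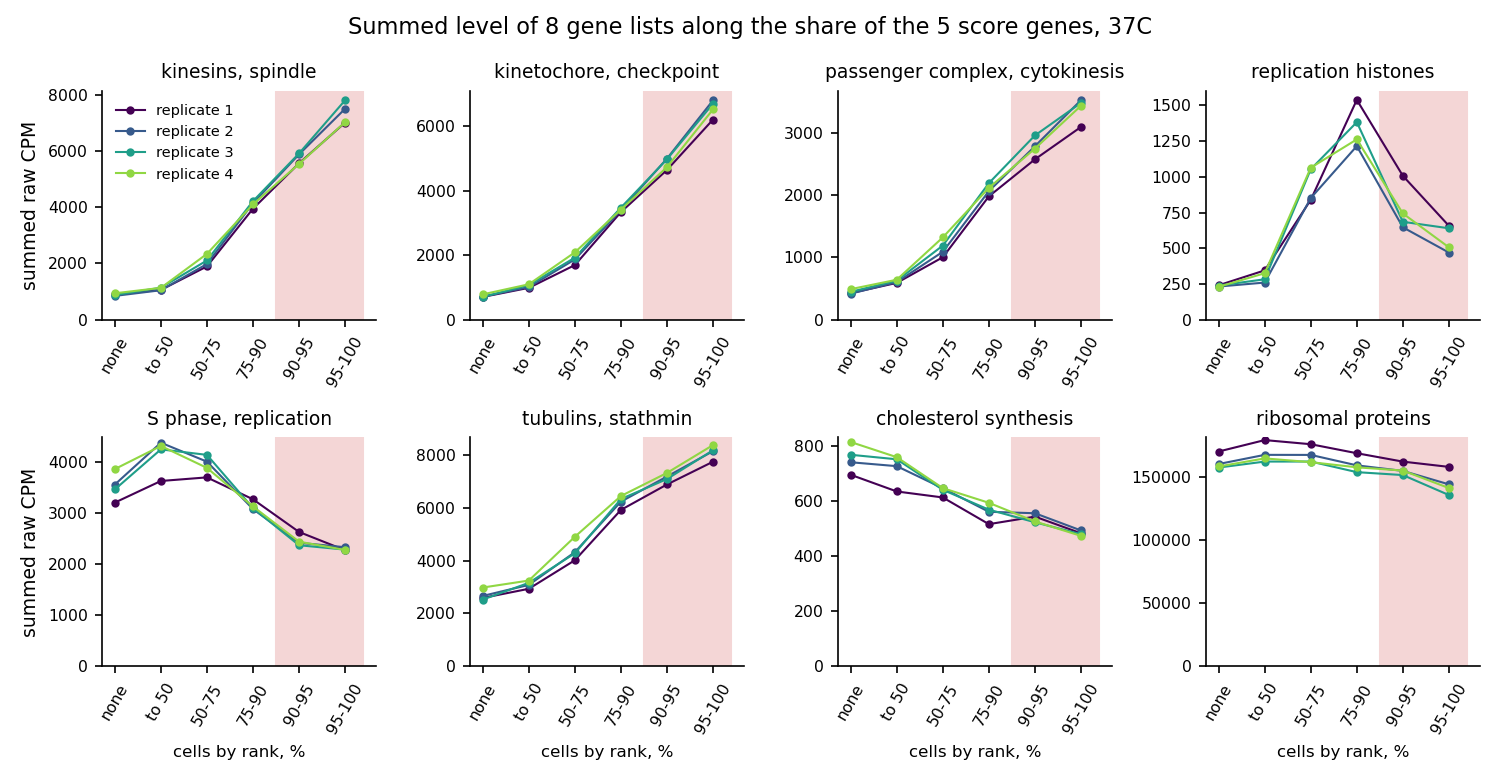
Summed level of 8 gene lists, in raw CPM from 0, in 37°C cells ranked by the share of the 5 score genes (none: cells without a score UMI; to 50: the other low-score cells). Lines are the 4 libraries and the shaded ranks are the mitotic cells. Spindle, kinetochore and cytokinesis genes climb through the members, histones peak at ranks of 75 to 90%, and S phase and cholesterol genes are low in the members.

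Single genes differed in how they changed inside the members. Cenpf went from 1411 ± 83.1 raw CPM at 90 to 95% to 2288 ± 96.9 at 95 to 100%, and Serpinb8 from 57.3 ± 9.19 to 97.5 ± 10.2, after 22.2 ± 3.42 at 75 to 90%. Aurkb had nearly reached its highest level at 75 to 90% (90.1 ± 4.77) and stood at 107 ± 7.65 at 95 to 100%. Cdkn1b stood at 53.7 ± 4.23 without a score UMI and 47.8 ± 4.62 at 50 to 75% and reached 116 ± 5.50 at 95 to 100%. Timp3 went down at each step from 50 to 75% (959 ± 107) to 95 to 100% (344 ± 78.7).

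Some genes spread widely between members of one library. After thinning to 5000 UMIs, the variance over the mean (the Fano factor) was taken for 3596 genes with at least 0.2 UMIs per member, with a median of 1.08. Malat1 had the highest value (32.8, mean of 4 libraries) and was lower than in low-score cells (53.7). Mdm2, the ubiquitin ligase of p53, stood behind Malat1 and Gdf15 and was chosen for a closer look after its values were seen. Its Fano factor was 3.95, 21.5, 3.14 and 3.80 in members of replicates 1 to 4, against a mean of 2.46 in low-score cells. Replicate 2 held 1 member with 220.4 Mdm2 UMIs per 10000, and without the highest member of each library the values were 3.51, 3.23, 3.00 and 3.58, so the high value of replicate 2, and with it the place among all genes, rested on that cell.

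The quartiles of Mdm2 lay wider apart on both sides while its level did not pass the test. Mdm2 stood at 691, 735, 590.0 and 629 CPM in mitotic cells and 710.5, 598, 624 and 642 in low-score cells (0.04 ± 0.03, adjusted p = 0.348), and its direction turned without replicate 2 (-0.05). Per cell, the lower quartile was 1.92, 1.93, 1.77 and 1.46 UMIs per 10000 in members of replicates 1 to 4 and 3.44, 2.31, 2.65 and 2.85 in low-score cells. The upper quartile was 11, 10.3, 9.60 and 10.7 in members and 9.45, 8.87, 8.78 and 9.05 in low-score cells. Thus in each of 4 libraries the quartiles of members lay outside those of low-score cells on both sides, whereas the highest single cell was a low-score cell in replicates 3 and 4. The share of cells without an Mdm2 UMI was 8.72, 6.25, 10.6 and 14.2% in members and 5.13, 6.01, 4.94 and 6.67% in low-score cells, the shallower class. Across members, the correlation of Mdm2 with the logarithm of total UMIs was -0.101, -0.104, -0.132 and -0.154. Over 3101 genes, those most correlated with Mdm2 across members of a library were Cdkn1a (mean r 0.667, against 0.503 in low-score cells), Phlda3 (0.588 and 0.389), Notch1 (0.560 and 0.438), Trp53inp1 (0.553 and 0.370) and Btg2 (0.542 and 0.397). These are correlations over the 160 to 240 members of a library, which share its preparation, and are given as a description.

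**Figure D4:**
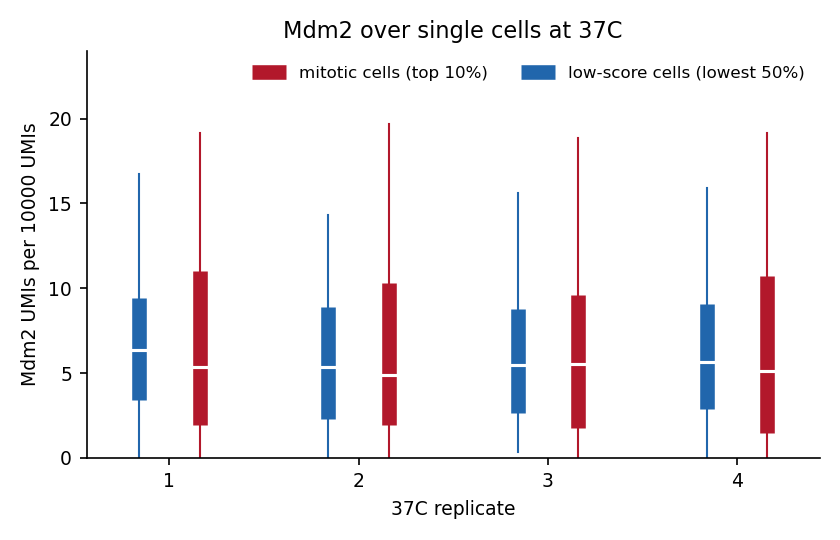
Mdm2 in UMIs per 10000 UMIs over single cells of low-score cells (blue) and mitotic cells (red) of each 37°C replicate. Thick bars span the quartiles, thin lines the 5th to 95th percentile and white marks the median. Medians lie between 4.89 and 6.33, and the bars of mitotic cells reach lower and higher in all 4 replicates.

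Cells at or above the limit of mitotic cells were rare at 39°C. Of 8133 kept cells, 45 reached the lowest of the 4 limits (4, 12, 13 and 16 in replicates 1 to 4), a share of 0.533% ± 0.0938 (SD, n = 4), where 12.2% ± 1.52 of 37°C cells did, a share that the rule itself sets near 10%. With exact 95% binomial intervals, which cover counting error only, the share was 0.421% (0.115 to 1.08) in replicate 1 and 0.644% (0.368 to 1.04) in replicate 4. The highest limit was reached by 29 cells at 39°C (2, 8, 7 and 12) and 698 at 37°C. Between 23.4 and 35.8% of 39°C cells carried any score UMI, against 62.7 to 70.0% at 37°C. These shares are of unthinned cells. Median UMIs of kept cells were 17053, 9409.5, 10631 and 8073 in replicates 1 to 4 at 39°C and 10545 to 15752.5 at 37°C. The 35.8% was that of replicate 1 and the 23.4% that of replicate 4, and the part of depth was not tested.

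These 29 cells also carried mitotic genes outside the score. Spindle genes summed to 7907, 7444, 8414 and 5761 raw CPM at 39°C against 6329.7 to 6822 at 37°C, and kinetochore genes to 7236, 5676, 6682 and 4841 against 5668 to 5951. The ranges of the temperatures overlapped for both lists and for cytokinesis genes (2821 to 3210.2 against 3039 to 3209). Mki67 stood at 1044, 1035, 979 and 590.1 raw CPM against 636 to 724. Targets of p53 summed to 8454, 11131, 5872 and 10102 at 39°C against 5643 to 6150.4, and Mdm2 alone to 1566, 2303, 574 and 1390.3 against 603 to 749. With 2 to 12 cells per library, no test was made, and in both of the last sums replicates 1, 2 and 4 of 39°C lay above the range of 37°C and replicate 3, with 7 cells, did not. Aurka stood at 149, 93.1, 135 and 90.02 raw CPM at 39°C, below the 153 to 174 of 37°C in all 4 libraries. The Aurka value of replicate 1 rests on 2 cells and lies close to the range of 37°C. The whole list of mitotic kinases and cyclins overlapped, with sums of 3929, 2501, 3228 and 2290 at 39°C against 2804 to 3055 at 37°C. Other single mitotic genes varied in both directions. Cenpf stood at 1691, 1838, 2441 and 1040 against 1846 to 1978, and Hmmr at 1094, 675, 832 and 490 against 609 to 675. Top2a stood at 1989, 1361, 1114 and 1030 against 1062 to 1132. Immediate early genes summed to 3009, 5804, 2261 and 4041, above the 1788 to 2127 of 37°C in all 4.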

How the data were processed

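RNA of single SN4741 cells was sequenced in 4 libraries at 37°C and 4 at 39°C. The authors deposited raw UMI counts per gene and cell, made with Cell Ranger 3.0.1 against mm10 and restricted to called cells. Members, gene lists and tests were chosen with earlier results of these data known. Cells were filtered and ranked as the report states, and counts of each class were summed per library. Genes outside the 5 score genes with a mean of at least 1 UMI over the 8 sums were tested with edgeR 4.0.16 (limma 3.58.1, R 4.3.3), TMM scaling and a quasi-likelihood test with the library as block, since both sums of a library come from the same preparation (their deviations correlated at 0.256, 0.203, 0.148 and 0.228 over 9249 genes). The residual degrees of freedom were 3 per gene, and the median prior degrees of freedom were 354 against low-score cells and infinite against middle cells. Gene p-values and SEs thus rest almost wholly on a spread pooled over genes, not on that of each gene between libraries. P-values were adjusted by Benjamini-Hochberg over all tested genes, with a threshold of 0.01. On simulated data for 13921 genes, with changes set in genes of a mean of at least 20 UMIs per sum, 99 of 100 changes of 1.5 and 62 of 100 of 0.5 on the log2 scale were recovered with 0 false calls. The simulation gave every gene the same fitted spread and a library effect shared by both sums, which the block removes. It followed the model of the test, so it cannot give the rate of false calls in the real data. Depth was compared by exact sign-flip permutation. Cell shares have exact 95% binomial intervals. Depth at 37°C was 26088423 to 28718979 UMIs per library in kept cells. Thinning, correlations and figures used Python 3.11.15, numpy 2.4.6, scipy 1.17.1 and matplotlib 3.10.9.

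Named genes were the 10 largest rises and falls against low-score cells (adjusted p under 0.01, at least 50 CPM where higher, the same direction in 4 libraries, without predicted Gm and Rik symbols), up to 3 members with the largest called change per list, the genes the study names for temperature, and the 5 largest rises and falls against middle cells by the same limits. Some genes that meet this rule are not reported here. Other genes named in the text were chosen after their values were seen. Alternatives were other scalings (RLE size factors, library totals), filters, DESeq2 1.42.0, no block, each replicate left out, other score genes, shares of cells, comparison cells and cell limits, thinned counts and UMI-matched cells. The score genes, doublets and the full gene comparison at 39°C were not tested.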

Additional observations from a re-analysis of the deposited data

Results flagged for a closer look

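In 7 of 139 groups of 4 libraries examined, 1 library stood apart from the other 3 by Dixon's gap criterion, where chance gives about 1 in 20. Hmmr had a log2 ratio of mitotic cells to low-score cells of 6.026 in replicate 2, against 5.398, 5.409 and 5.306 in the others. Ube2c reached 4.675 in the same library, against 4.238, 4.292 and 4.274. In both genes replicate 2 had the lowest level in low-score cells. Pttg1 was lowest in replicate 1, at 2.465 against 2.805, 2.749 and 2.76. Rpl37 fell least in replicate 4 (-0.2065, others -0.2679, -0.2793 and -0.2745), as did mt-Nd4 (-0.1887, others -0.2119, -0.2097 and -0.2103). Cdh13 fell most in replicate 2, at -0.8557 against -0.6077, -0.5634 and -0.5601. The median of the mitotic kinases and cyclins was 2.744 in replicate 3 and 2.516, 2.482 and 2.513 in replicates 1, 2 and 4. All 7 kept one direction in the 4 libraries. The causes were not tested.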

How the results depend on the processing

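Against low-score cells, counts of called genes moved by over 1.5 times under few settings. DESeq2 called 1242 higher and 1148 lower genes (large falls 71), sums of cells thinned to 5000 UMIs 1030 and 1232 (large falls 91), and cells matched on total UMIs 1447 lower (large falls 94). Large falls numbered 98 with the top 20% of cells, and comparison with all other cells gave 123 large rises and 96 large falls. Against middle cells, DESeq2 called 547 and 555 (large falls 11), thinned sums 469 and 574 (large falls 18) and matched cells 906 lower (large falls 24). Large falls were 15 with the top 20% and 22 with a score of Ccnb1 and Ccnb2. Thinned cells were ranked anew by their thinned counts, so members and comparison cells shifted as well as their sums. Fewer UMIs entered the thinned and matched sums. The causes of these shifts in counts were not tested. Without the replicate block, calls against low-score cells were 1533 higher and 1658 lower, and against middle cells 698 and 767.

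Leaving out each replicate gave 1622 to 1705 higher and 1907 to 1992 lower genes against low-score cells (large 204 to 218 and 118 to 140), and 865 to 915 and 1050 to 1230 against middle cells (large 33 to 43 and 31 to 46, with 33, 32 and 31 large falls without replicates 3, 2 and 4). The difference in median UMIs ranged from 1253 to 1732, in genes from 313.5 to 352 and in mitochondrial share from -0.664 to -0.573. With the top 5% of cells the difference in median UMIs was 577.5.

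Directions turned as follows. Hist1h2ab stood at -0.28 against all other cells, where Rrm2 was at -0.0158. Mybl2 stood at 0.0776 against the lowest 25% of cells and Ncam1 at -0.0384 with thinned sums. Id2 ranged from -0.0148 (without replicate 3) to 0.0598 (without replicate 1) with a replicate left out, and stood at -0.0552 with the top 5%, -0.0536 with the score of Ccnb1 and Ccnb2, -0.0404 with no upper limit on genes, -0.156 against all other cells and -0.0634 against the lowest 25% of cells. Mdm2 ranged from -0.0512 (without replicate 2) to 0.0688 (without replicate 3), and stood at -0.0319 with the top 5%, -0.0955 with the score of Ccnb1 and Ccnb2, -0.0365 against all other cells and -0.00995 against the lowest 25% of cells. Hmga2 stood at 0.0377 with thinned sums. List medians turned for p53 targets (0.0210 and, against middle cells, 0.00695 with the top 20%), heat shock genes (0.00276 with a limit of 5000 genes), ATF4 targets (0.00616 against middle cells with the top 20%) and histones (0.0629 against middle cells with the top 20%, 0.0542 with thinned sums). Of the 2967 gene values under alternatives against low-score cells, 2798 kept direction and side of the threshold, 6 gained the call and 16 turned direction. A further 147 kept direction but lost the call (31 with a replicate left out and 116, in 30 genes, under other settings, each given beside its gene). The turned values of Hist1h2ab, Rrm2, Mybl2 and Ncam1 were no longer called either. Depth limits genes with few UMIs, such as single histones.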
